A study of Mus musculus with 2 samples.

Results

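The proteins of the small (40S) ribosomal subunit were measured through the 58 probes, of 33 genes, that carry one of their gene names on the array, out of 41174 probes and 27962 gene names in all. A probe was taken where its gene name in the scanner file is Rps followed by a number (with an optional a, x, y or l), Rpsa, Lamr1 (the older name of Rpsa) or Fau. Another 11 genes whose names begin with Rps, such as the ribosomal S6 kinases (23 probes), encode other proteins and were not members. RNA of adipocyte-derived microvesicles (ADMs, particles pelleted from the culture medium) was compared with RNA of the adipocytes that released them, in 2 biological replicates on 2 Agilent 2-colour arrays with the dyes exchanged. Both RNAs came from 3T3-L1, an established mouse fibroblast line that turns into fat cells in culture. The cells had been kept in medium with 10% calf serum and induced with insulin (10 µg/ml), dexamethasone (0.25 µM) and 3-isobutyl-1-methylxanthine (0.5 mM), and medium and cells were collected on day 11. No other genotype, treatment or time was included, every sample is of this 1 line, and 250 ng of total RNA was amplified for each labelling whatever the source. The ratios therefore compare the make-up of equal amounts of RNA, and less RNA per vesicle or fewer vesicles cannot be seen in them.

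The small subunit binds the mRNA and is where its codons are matched to transfer RNAs. Each of its proteins sits at a fixed place on the 18S ribosomal RNA, so cells make them in matched amounts, and their mRNAs are abundant in almost every cell. In mammals these mRNAs begin with a run of pyrimidines led by a C, the 5′ terminal oligopyrimidine (TOP) motif, through which growth signals acting by way of mTOR control their translation.

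Start-site sequences are shown because the TOP run is a feature described for this class of mRNAs that the choice by name did not use. RefSeq's GRCm38.p6 gave 30 windows of 30 bases around annotated starts (10 before and 20 from the start onward) for 25 of the 33 genes. A C followed by at least 5 more pyrimidines, beginning within 10 bases of the annotated start and read on the transcribed strand only, was present for 14 of the 25 genes (56%). The same letters were present for 18 of 38 large subunit genes (47.4%) and for 5291 of 27025 genes in all (19.6%). A run whose first C lies farther upstream was not counted; read from its first C inside the window instead, an alternative chosen after the data were seen, the counts are 15, 20 and 5702 genes. The windows are those of Fau (chr19:6057937-6057966), Rps10 (chr17:27635225-27635254), Rps18 (chr17:33955646-33955675), Rps6 (chr4:86857348-86857377) and Rps24 (chr14:24490668-24490697), with the run in capitals, and of Rps27l (chr9:66946076-66946105) and Rps28 (chr17:33824543-33824572), in which no run was counted. In Rps27l the run begins 12 bases before the start, outside the window, and its last letters open the line. Fau, Rps24 and Rps27l lie on the plus strand, and the other four genes on the minus strand.
Fau: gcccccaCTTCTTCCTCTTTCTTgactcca
Rps10: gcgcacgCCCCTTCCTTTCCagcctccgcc
Rps18: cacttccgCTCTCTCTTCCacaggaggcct
Rps6: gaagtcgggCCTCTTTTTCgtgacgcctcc
Rps24: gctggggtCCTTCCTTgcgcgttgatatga
Rps27l: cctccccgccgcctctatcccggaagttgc
Rps28: cgcgtgcggtctcgcgagagcgaaagtgag
The run reached 16 bases in Fau, 13 in Rps10, 11 in Rps18, 10 in Rps6 and 8 in Rps24, and in these genes it began 1 to 3 bases before the start. In some other genes counted it began after the start, by 8 bases in Rps12, 6 in Rps19, 4 in Rps2 and Rps26 and 3 in Rps23. Such a run is not at the very end of an mRNA that begins at the annotated start. The search is only of letters in an annotated window, and a start annotated a few bases away moves the run out of reach.

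The 58 probes fell into a bright and a dim class, a division made after their signals were seen. In 45 bright probes the net signal of the cell-labelled RNA (mean spot minus median local background, in scanner units) was over 100 on both arrays, and every one of the 33 genes had at least 1 such probe. The other 13 probes, of 12 genes, were dim. The bright probes nearest the limit were the dimmest Rps3 probe (127 and 411 units in the cell-labelled RNA on arrays 1 and 2) and the third Rps21 probe (131 and 337), and the dim probe nearest to it was the second Rps4x probe (49.3 and 151). All 33 genes were thus measured in both RNAs on both arrays, and 46 probes carried the scanner's flag for being well above background in both. None was saturated or flagged as an uneven spot.

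In every bright probe the net signal of the ADM-labelled RNA exceeded that of the cell-labelled RNA on both arrays. On array 1, with ADM RNA in Cy5, they ran from 5540 to 206355 units in the ADM-labelled RNA (median 55711) and from 127 to 5314 in the cell-labelled RNA (median 1187). On array 2, with ADM RNA in Cy3, the range was 2433 to 90256 (median 22493) in the ADM-labelled and 337 to 25971 (median 4034) in the cell-labelled RNA. The ADM signal was 30.8 to 81.2 times the cell signal on array 1 (median 47.0) and 2.70 to 9.46 times on array 2 (median 5.16). The excess was general. Over the 8820 other probes well above background in both RNAs the median was 65.4 times on array 1 and 8.87 times on array 2, so the members' medians lay below those of other measured probes on both arrays.

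**Figure D1:**
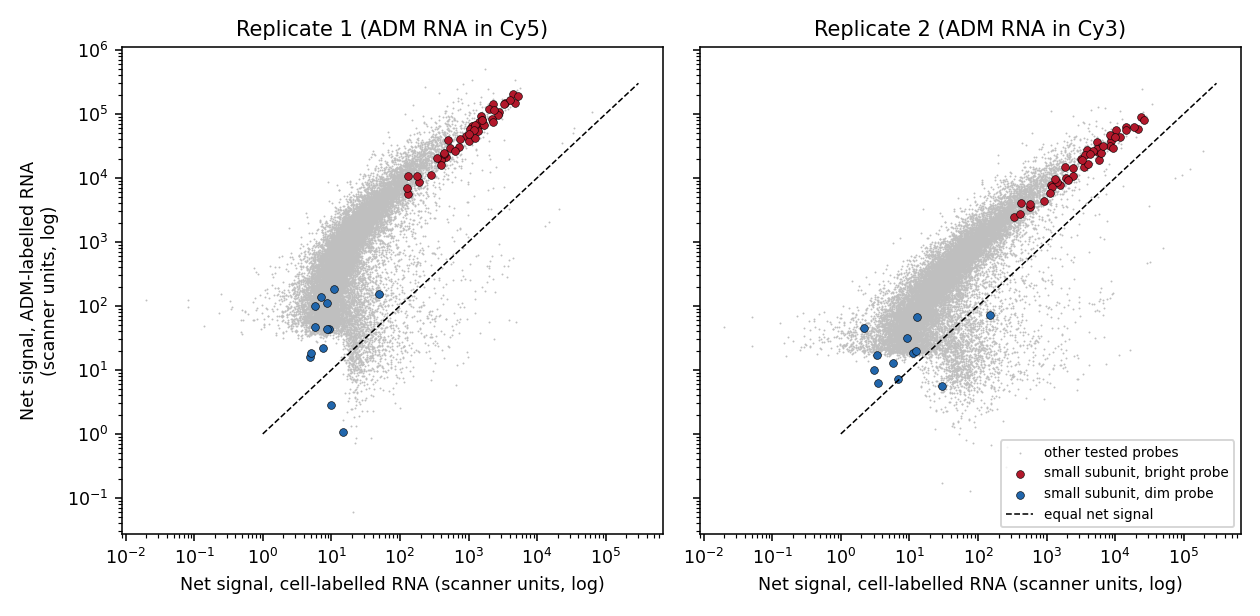
Net signal of each probe in the cell-labelled RNA (x) and the ADM-labelled RNA (y), in scanner units on log axes, for each replicate. Red points are the 45 bright and blue points the 13 dim small subunit probes (those with a net signal above 0 in both RNAs), and grey points are the other tested probes. The red points lie above the dashed line of equal signal and within the bright end of the grey cloud, towards its lower right side.

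In the order of brightness the members stood at the top of both RNAs. Among the 100 brightest gene probes, 12 (array 1) and 13 (array 2) were small subunit probes in the cell-labelled RNA. In the ADM-labelled RNA they numbered 7 on each array. For the large subunit the counts were 12 and 15 in the cell-labelled RNA and 11 on each array in the ADM-labelled RNA. The brightest member in the ADM-labelled RNA was the first Rps18 probe, with 206355 and 90256 units, and in the cell-labelled RNA the first Rps2 probe, with 5314 and 25971. Signals of different probes depend on the probe as well as on the RNA, so these ranks order probes and not genes.

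To set the members against all other probes, each array's log2 ratio of ADM over cell was normalized by loess, which subtracts a curve of the ratio against brightness. The limma package then tested whether the mean of both arrays differed from 0. After the filter 37 of the 58 probes were tested, 14 lacked a value on 1 array or both because the scanner had flagged the local background as outlying, and 7 dim probes were not above background in either RNA on both arrays. Of the 37 probes tested, 27 (23 genes) had a lower ADM signal at an adjusted p under 0.05, 0 were higher and 10 did not pass, whereas after median centring of each array in place of loess 33 were higher and 0 lower. Over all 18117 probes tested, 10.9% were called lower and 5.52% higher by the same fit, and 59.5% higher with median centring. With plain background subtraction 1 of 36 members was lower and 0 higher, beside 8.53% and 2.64% over all probes, with the scanner's processed signals 10 of 37 were lower and 1 higher, beside 14.2% and 32%, and with outlying local backgrounds kept limma called 0 of 51 and 0 probes in all (15 and 158 at an unadjusted p under 0.05). By loess, at an unadjusted p under 0.05, 32 of the 37 passed and all of them were lower. The median log2 ratio of the 37 was -1.33 (array 1 -1.74, array 2 -1.02), beside 0.07 over all tested probes, and median centring turned it to 3.48, beside 2.04. All 33 bright probes with both values were below 0 on both arrays after loess. None of the 4 tested dim probes was well above background in the cell-labelled RNA on both arrays. The sign of each ratio after loess is thus relative to the loess curve, which at the bright end lay above other probes. On array 1 their median-centred ratio had a median of 5.31 at a mean log2 signal of 10.25 and 5.48 at 13.75. The second Rps19 probe (signal 10.46) had 5.34 with median centring and -0.04 after loess, and Rps7 (13.49) had 5.09 and -2.16. Loess therefore overstates how far the brightest members lie below probes of like brightness, and most probes behind the overall shares were dimmer.

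**Figure D2:**
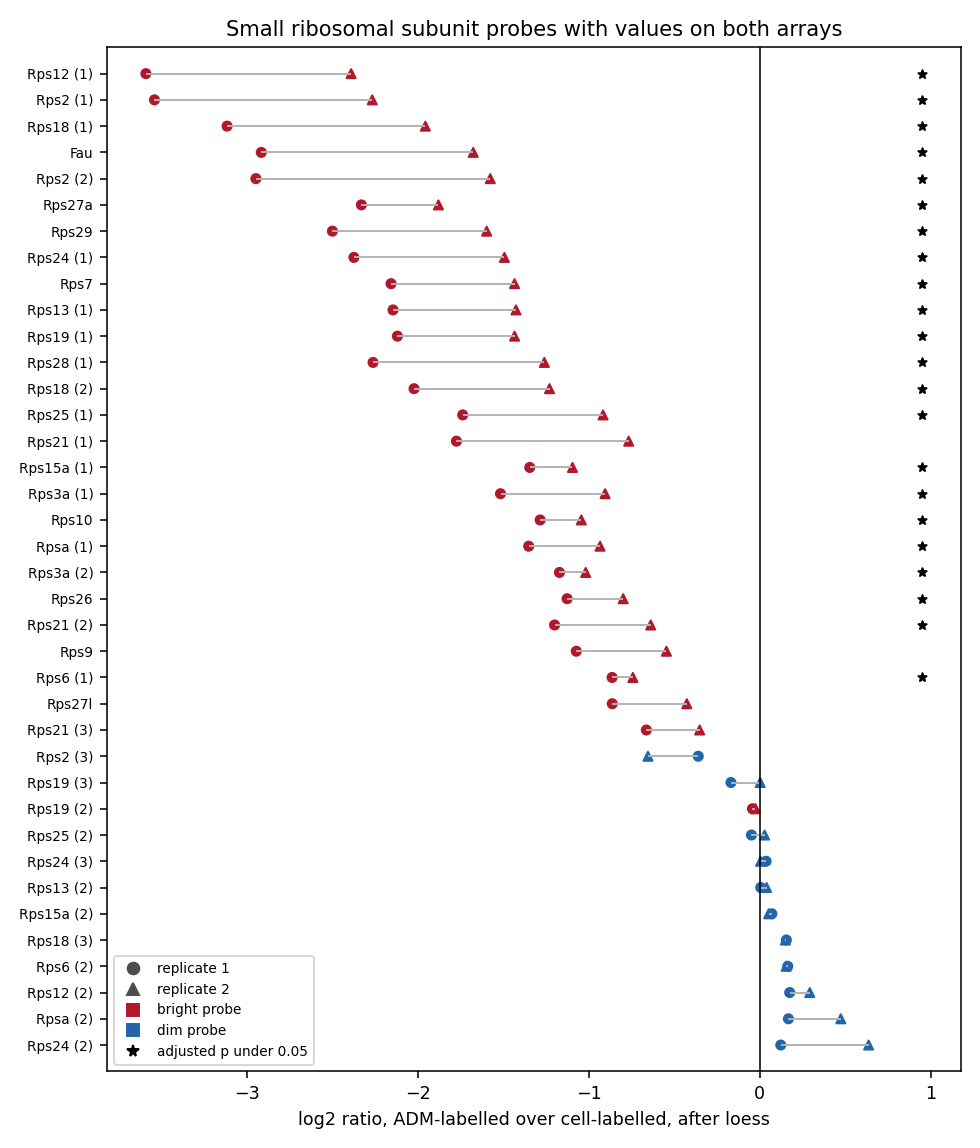
log2 ratio of ADM-labelled over cell-labelled RNA after loess for 38 of the 44 small subunit probes with values on both arrays, 1 row per probe (the number in brackets ranks a gene's probes by brightness). Circles are replicate 1 and triangles replicate 2, red marks bright and blue dim probes, and stars mark an adjusted p under 0.05 in limma. The red points lie below 0 and replicate 1 is the lower in each of the 22 starred probes; with median centring the bright probes lie above 0.

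The replicates ordered the members alike and differed in size. Across the 37 tested probes the loess ratios of the arrays correlated with r = 0.955 (rho = 0.940), given without a p because probes of the same hybridisation are not independent. The ratios followed brightness: across the same 37 probes, the mean ratio and the mean log2 signal correlated with r = -0.906, and across the 33 bright ones with r = -0.900. A brighter member was therefore also one with a more negative loess ratio.

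Genes of the head of the subunit, the part that swivels as the mRNA moves, are described first. The list of head proteins and that of the body and platform were drawn up from textbook knowledge. Of 13 tested probes of head genes 11 were lower after loess and 0 higher, with a median of -1.63. Over all probes 10.9% were lower and 5.52% higher. All 10 head genes that were tested had a called probe, in the case of Rps19 only one with a clone or EST accession. With median centring every bright probe is above 0. Rps12, a head protein, had the most negative ratio of all members. Its first probe gave 148324 (ADM) and 4814 (cell) units on array 1 and 58231 and 21591 on array 2. The ADM signal was thus 30.8 and 2.70 times the cell signal, the smallest multiples of any bright member. After loess the log2 ratios were -3.59 and -2.39 (mean -2.99 ± 0.85, SD of the 2 arrays, as for every ± here; limma adjusted p = 0.020), and with median centring the mean was 2.85.

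Rps18, a head protein near the transfer RNAs, gave 206355 and 4465 units on array 1 and 90256 and 23873 on array 2 (ADM, then cell) in its first probe. Its loess ratio was -2.53 ± 0.82 (limma adjusted p = 0.024; 3.39 with median centring). Rps29, a small zinc-binding head protein, gave 66019 and 1700 units on array 1 and 24771 and 6122 on array 2. Its ratio was -2.05 ± 0.64 (limma adjusted p = 0.024; 3.30 with median centring). Both arrays put these genes on the same side after loess, with array 1 the farther from 0.

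Rps27a is made as a fusion of ubiquitin with a head protein, and ubiquitin is cut off afterwards. Its probe read 53859 and 1382 units on array 1 (ADM, then cell) and 18685 and 5758 on array 2. The loess ratio was -2.10 ± 0.32 (limma adjusted p = 0.011; 3.14 with median centring), and the arrays lay closer together than for Rps12 or Rps18. A ubiquitin probe does not tell such a fusion from related ubiquitin genes unless it lies in the ribosomal part, and the probe sequences were not used here.

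Rps19, the gene most often mutated in the human red cell disorder Diamond-Blackfan anaemia, had discordant probes. The called probe carries a clone or EST accession, and the bright probe that was not called carries a RefSeq accession. In build mm7, the build of the array files, the 3 probes lie on the plus strand of chromosome 7. The first, at chr7:21678419-21678478, gave 37398 and 1003 units on array 1 and 14911 and 3541 on array 2 (ADM, then cell), and a loess ratio of -1.78 ± 0.48 (limma adjusted p = 0.022; 3.28 with median centring). The second, whose alignment spans 326 bases of genome at chr7:21674338-21674663 and so crosses an intron, gave 10780 and 133 units on array 1 and 3983 and 421 on array 2. Its ratio was -0.03 ± 0.01 (limma adjusted p = 0.84), and its ADM-to-cell multiples of 81.2 and 9.46 were the highest of all bright members. The third, at chr7:21676271-21676330 between them, was dim in both RNAs. The difference of 1.74 log2 units between the bright probes was larger than the SD of either.

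Rps25, a head protein that viral internal ribosome entry sites depend on, gave 58085 and 1038 units on array 1 and 22493 and 3610 on array 2 in its bright probe. Its loess ratio was -1.33 ± 0.58 (limma adjusted p = 0.040; 3.85 with median centring). The head genes Rps15, Rps16 and Rps20 had a usable bright value on 1 array only, and Rps3 (also a DNA repair endonuclease) had a different usable bright probe on each array, so they carry no test. The loess ratios were -2.004 for the first Rps3 probe on array 2 and -0.42 for the second on array 1. On array 2 they were -1.86 for Rps16 and -2.09 for Rps20, and on array 1 the Rps15 ratio was -0.79. All 4 lay on the same side as the head genes that were tested.

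Among genes of the body and platform, 16 of 24 tested probes were lower after loess and 0 higher, with a median of -1.18. The shares over all probes were again 10.9% lower and 5.52% higher. Of the 15 body and platform genes tested, 13 had a called probe. Rps2, a protein at the mRNA entry channel, came next to Rps12. Its first probe gave 186430 and 5314 units on array 1 and 78884 and 25971 on array 2 (ADM, then cell), and its second 95408 and 2662, then 38177 and 8800. The loess ratios of these were -2.90 ± 0.90 (limma adjusted p = 0.022) and -2.26 ± 0.97 (limma adjusted p = 0.034), or 3.04 and 3.30 with median centring. Both probes thus read the same way on each scale.

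Fau is made as a fusion of a ubiquitin-like protein with Rps30. Its single probe read 149859 and 3359 units on array 1 and 63040 and 14542 on array 2. The loess ratio was -2.29 ± 0.88 (limma adjusted p = 0.029; 3.46 with median centring). Rps24, another Diamond-Blackfan gene, gave 42049 and 1234 units on array 1 and 16567 and 4034 on array 2 in its bright probe, with a ratio of -1.93 ± 0.62 (limma adjusted p = 0.025; 3.20 with median centring). Its other probes, both dim and both downstream of the bright one in mm7, were not well above background in the cell-labelled RNA on either array. In the cell-labelled RNA on array 2 the second of the 3 read -1.11 units, that is, no signal above its surroundings.

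Rps6, the subunit's best known phosphoprotein and the substrate of the S6 kinases, was among the least negative of the called members. Its bright probe gave 20744 and 346 units on array 1 and 7269 and 1196 on array 2, and its loess ratio was -0.80 ± 0.09 (limma adjusted p = 0.029; 3.80 with median centring). Rpsa, which also serves as a laminin receptor at the cell surface, gave 16042 and 398 units, then 5860 and 1124, in its bright probe. The ratio was -1.14 ± 0.29 (limma adjusted p = 0.026; 3.42 with median centring). The dim Rpsa probe, with 101 and 44.4 units in the ADM-labelled RNA, was not well above background in the cell-labelled RNA on either array. The arrays lay close together for Rps6, whose SD was a small part of its ratio.

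Rps27l is a paralogue of Rps27 that p53 induces in human cells. Its probe gave 39061 and 503 units on array 1 and 15023 and 1837 on array 2, and after loess -0.86 and -0.43 (mean -0.64 ± 0.31; limma adjusted p = 0.067; 4.24 with median centring). Rps27 itself had a value on array 2 only, at -1.75, where its probe read 31504 units in the ADM-labelled and 8346 in the cell-labelled RNA. The net ADM signal was 8.18 times the cell signal for Rps27l and 3.77 times for Rps27 on that array, and 77.7 and 37.6 times on array 1, where the Rps27 spot carried the background flag. The order was the same on both arrays, and the difference was not tested. Rps9, at the entry channel, was the other tested gene with no called probe (-0.81 ± 0.37, limma adjusted p = 0.055).

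Rps14, a platform protein, and Rps4x, an X-linked body protein, were also usable on array 2 only, at -1.35 and -1.58 for their bright probes. The second Rps4x probe, which matches a clone or EST entry and has no mm7 position in the files, read 152 units (ADM) and 49.3 (cell) on array 1 and 73.3 and 151 on array 2. It was thus brighter in the cell-labelled RNA on array 2 and in the ADM-labelled RNA on array 1. Rps23 had -1.85 on array 2. With only the spots over a local background of 100 units left out, an alternative chosen after the data were seen, 51 members were tested, of which 41 were lower and 0 higher after loess beside 12.5% lower and 6.94% higher over all probes, and the median was -1.38. Under it Rps3, Rps14, Rps15, Rps16, Rps20, Rps23, Rps27 and Rps4x had both arrays, with mean ratios of -2.34, -1.64, -0.68, -2.28, -2.50, -2.27, -2.13 and -1.95 in their brightest probes.

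Of the members called and not yet described, Rps7, which in human cells binds the p53 regulator MDM2, and Rps13 in the body gave 81084 and 1578, then 31103 and 6711 units, and 67010 and 1410, then 25125 and 5543 units (array 1, then array 2; ADM, then cell). Their loess ratios were -1.79 ± 0.51 and -1.78 ± 0.51 (limma adjusted p = 0.023 for each). Rps28, a head protein at the mRNA exit, had 3 bright probes, whose ADM signals of 67589 to 141078 units on array 1 and 26377 to 56696 on array 2 stood against cell signals of 1257 to 2275 and 4829 to 10113. The 1 with both values gave -1.76 ± 0.71 (limma adjusted p = 0.033). The bright-probe ratios of Rps10, Rps15a, Rps26 and Rps3a lay between -1.22 (Rps15a) and -0.96 (Rps26), each below 0 on both arrays, and with median centring all were above 0. Rps3a is Rps3a1 in the current RefSeq naming.

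For 18 genes there was more than 1 probe, and in 14 of them at least a pair had values on both arrays. Among the 7 genes with several usable bright probes the spread of the mean ratio included 0.12 log2 units for Rps3a, 0.64 for Rps2, 0.76 for Rps21, 0.91 for Rps18 and 1.74 for Rps19. Within Rps21 the ratios were -1.27, -0.92 and -0.51 in order of brightness. The dimmer bright probe was the nearer to 0 in each of the 7. Probes of 1 gene read the same mRNA pool or isoforms of it, so this spread sets a scale for how far a single probe's loess ratio can be read as its gene's. It also takes in the trend of the loess ratio with brightness. Against the neighbours described below, the Rps3a probes lay farther apart (-0.58 and -1.06) and the bright Rps18 probes closer (-0.92 and -0.61). The bright Rps19 probes stayed apart (-1.06 and -0.14).

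**Figure D3:**
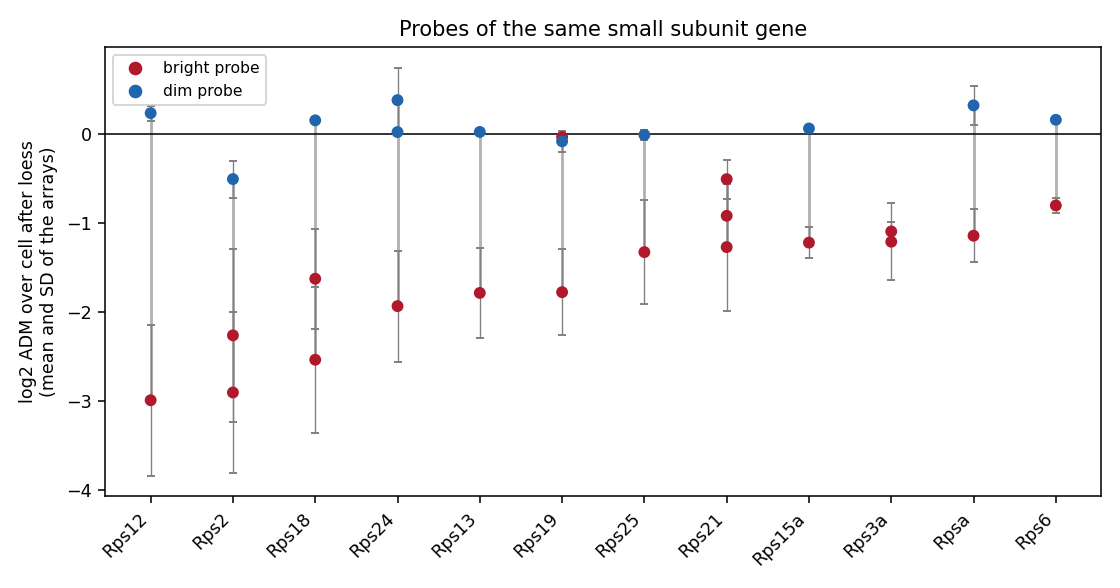
Mean log2 ratio of ADM-labelled over cell-labelled RNA after loess, with the SD of the 2 arrays, for each probe of 12 of the 14 small subunit genes with more than 1 probe measured on both arrays. Red points are bright and blue points dim probes, whose cell-labelled signal was at or near background. Among the red points those of Rps19 lie 1.74 log2 units apart, and those of Rps3a 0.12.

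Many dim probes match records other than RefSeq: 14 of the 58 probes carry a clone or EST accession and 44 a RefSeq one. The dim Rps6 probe lies 18687 bases from the bright one in mm7, the dim Rps15a probe 10034 bases. The dim Rps12 probe (chr10:23539315-23539374, minus strand) read 46.5 and 5.77 units on array 1 and 17.0 and 3.35 on array 2, while the bright one, 1027 bases away at chr10:23538288-23538347, was among the brightest of all members. Among bright probes with both values, the 11 whose alignment spans more than 64 bases of genome, which a spliced transcript gives, had a median loess ratio of -1.22, and the 22 others -1.49. Small subunit genes have many processed pseudogenes, copies of the spliced mRNA in the genome, and whether a probe also binds their transcripts was not tested.

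Loess at the bright end rests on few probes, so the members were also set against the 500 other probes nearest to them in mean log2 signal, on each array, without loess. The difference has no test. All 33 bright probes with both values lay below the median of their neighbours on both arrays. The median difference was -0.72 log2 units (range -1.45 to -0.12), with -0.65 on array 1 and -0.86 on array 2. Counting the bright probes with a value on 1 array too, 36 of 36 on array 1 and 41 of 41 on array 2 were below. A typical bright member stood at the 23.6th percentile of its neighbours on array 1 and at the 19.0th on array 2, with ranges of 6.0 to 46.4 and 5.2 to 40.2. At the bright end the neighbours lay mostly on the dimmer side: for the first probes of Rps2, Rps12 and Rps18, 7, 9 and 7 of the 500 were brighter on array 1, and the median neighbour lay at -2.70, -2.46 and -2.65 log2 units from them. Among bright probes with at least 100 brighter neighbours, 18 of 18 on array 1 and 26 of 26 on array 2 were below, with medians of -0.69 and -0.67. Rps12 was again lowest (-1.23 and -1.68), and Rps27l (-0.05 and -0.20) and the second Rps19 probe (-0.12 and -0.16) were nearest to their neighbours. The median was -0.96 for the 12 bright head probes and -0.67 for the 21 of the body and platform.

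**Figure D4:**
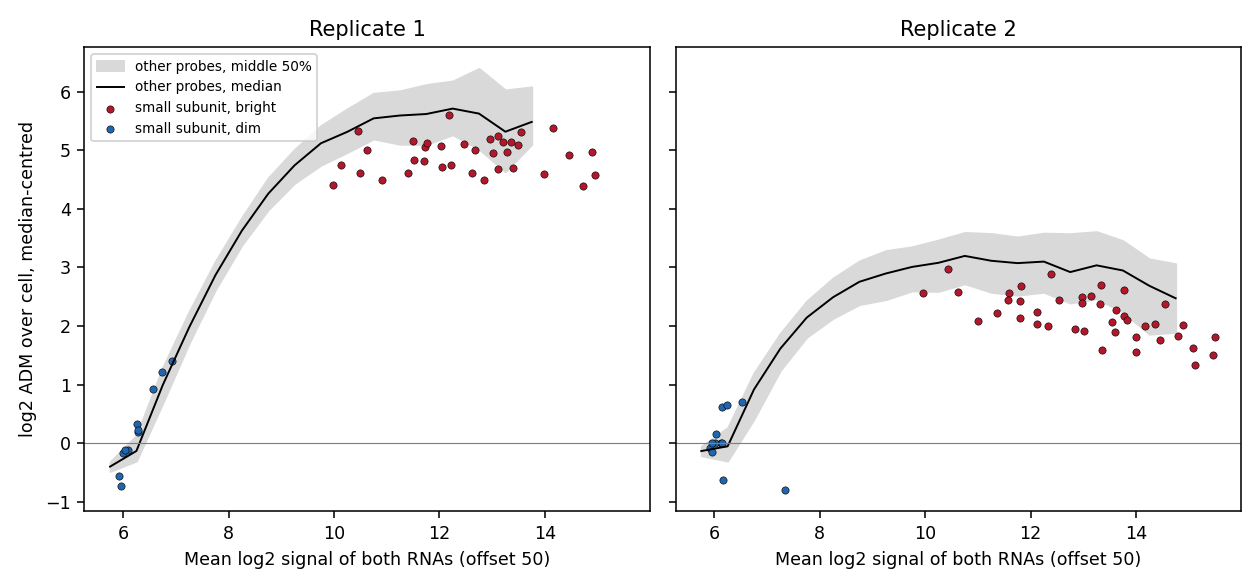
log2 ratio of ADM-labelled over cell-labelled RNA, centred on the array's median, against the mean log2 signal of both RNAs after normexp with an offset of 50, for each replicate. The line and band are the median and the middle 50% of other probes in steps of 0.5 log2 units, and red and blue points are bright and dim small subunit probes. The bright probes lie above 0 and below the line or near it, from about 10 log2 units of mean signal upwards.

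The size of the difference depended on which signal defined the neighbours. With nearness in the ADM-labelled signal alone the median was -0.92 and 33 of 33 bright probes were below. With nearness in the cell-labelled signal alone it was -0.27 (range -0.81 to 0.29), and 27 of 33 were below and 6 above. The members then stood at a median of the 45.4th percentile on array 1 and the 37.8th on array 2. Rps12 (-0.81), the second Rps3a probe (-0.76) and Rpsa (-0.64) kept the farthest distance below, and Rps27l (0.29) and the first Rps21 probe (0.20) were among those above. Against the probes nearest in the cell-labelled signal, therefore, the ADM signal of most members was lower by a small margin and that of some was higher. These probes were not all as bright in the cells as the members. The bright Rps12 probe stood at the 99.94th percentile of the cell-labelled signal on both arrays, so its neighbours lay mostly on the dimmer side. How many neighbours were brighter was not counted on this scale.

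**Figure D5:**
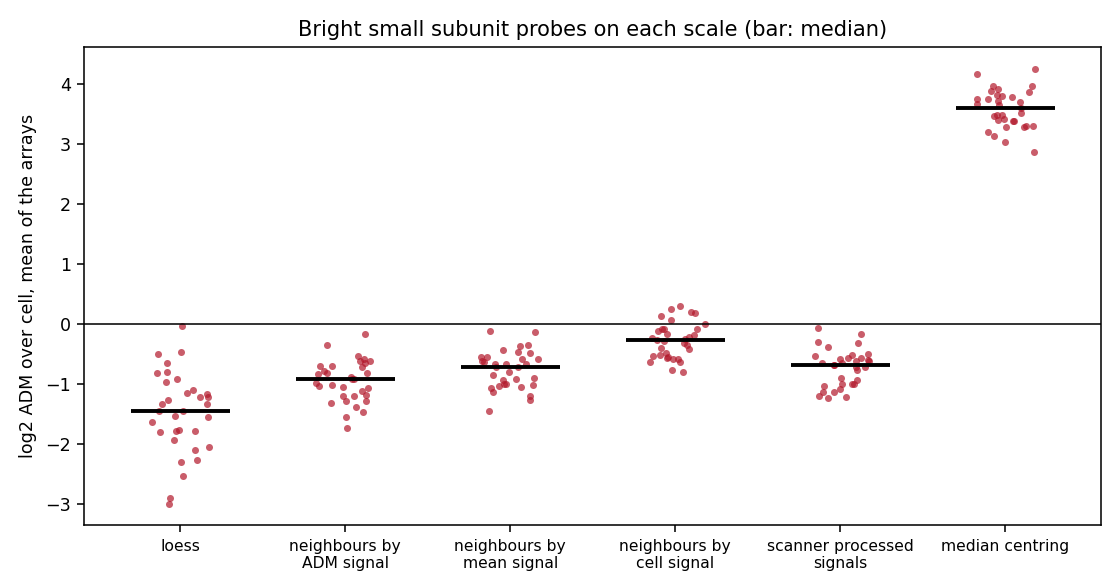
Mean log2 ratio of ADM-labelled over cell-labelled RNA of the 33 bright small subunit probes with values on both arrays, on 6 scales; the bar is the median. The medians are -1.44 after loess, -0.92, -0.72 and -0.27 against neighbours in ADM, mean and cell signal, -0.69 in the scanner's processed signals and 3.60 after median centring, on which every probe is above 0.

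Other gene lists were read from the same fit, with loess, and are given by their counts and medians. They too were chosen with results of these data known. Each count stands beside 10.9% lower and 5.52% higher over all probes tested. The large subunit, the partner of the small one, was close to it: of 57 tested probes 44 were lower and 0 higher, with a median of -1.27 (3.43 with median centring). Rpl14 (-3.27 ± 1.46) and Rpl12 (-3.07 ± 0.53) were its lowest called probes, and Rpl29 (-0.55 ± 0.02) the highest. No test of a difference between the subunits was made.

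The mitochondrial small subunit, whose proteins serve the organelle's own ribosome, had 1 of 37 tested probes lower (Mrps2, -0.88 ± 0.34) and 4 higher, with a median of 0.22 (3.94 with median centring). The higher ones were Mrps15 (0.62 ± 0.12), both Mrps23 probes (0.60 ± 0.07 and 0.59 ± 0.08) and Mrps25 (0.56 ± 0.04). Their net signals were far below those of the cytosolic members: Mrps15 gave 7034 (ADM) and 58.7 (cell) units on array 1. The lists therefore differ in brightness as well as in ratio, and the part of brightness in the difference was not tested.

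Other mRNAs with a TOP motif, which encode translation factors and related proteins, had 10 of 28 tested probes lower and 0 higher, with a median of -0.37. The lowest were Npm1, a nucleolar chaperone (-2.06 ± 0.18 and -1.83 ± 0.12), and Eef1a1, which brings transfer RNAs to the ribosome (-1.57 ± 0.44). Gnb2l1, also known as Rack1, which docks on the small subunit's head, gave -0.92 ± 0.30. Of 52 tested probes of assembly factors for the small subunit 7 were lower and 0 higher (median -0.10). The share lower, 13.5%, was near the 10.9% over all probes. Nucleolin (Ncl) was lowest at -2.08 ± 0.66. Of 33 probes for mTOR and the proteins that act on TOP mRNAs, 2 were lower and 1 higher, with a median of 0.10. Here the share lower, 6.06%, was below that over all probes. The lower probes were Eif4ebp2 at -2.10 ± 0.09 and the S6 kinase gene Rps6ka1 at -1.56 ± 0.51. The higher was Gbl at 0.58 ± 0.09. With median centring the medians of these 3 lists were 3.54, 2.56 and 2.18.

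Whole-array facts bear on all of this. Adipocyte markers were present in both RNAs: all 17 adipocyte genes listed were above background in both on both arrays. Of their 22 tested probes 8 were higher and 6 lower after loess, beside 5.52% and 10.9% over all probes. Their summed net signal was 1906952 to 4120212 units in the ADM-labelled and 18615 to 121117 in the cell-labelled RNA. Of 9 macrophage genes, 4 were above background in the ADM-labelled and 3 in the cell-labelled RNA, with summed signals of 1942 to 4888 and 395 to 1167 units, and 2 of 3 tested probes were lower (Cd74 at -3.93 ± 1.91 and Lyzs at -3.30 ± 0.60). Of 13 preadipocyte and fibroblast genes, 13 were above background in the ADM-labelled and 12 in the cell-labelled RNA. Detection alone therefore does not tell adipocytes from their precursors. The summed signals of these genes were 243089 to 612929 and 2634 to 10184 units, and 9 of 21 tested probes were higher and 1 lower. Muscle and red cell genes had 0 called by limma of 5 and of 2 (1 and 2 at an unadjusted p under 0.05). The part of any other cell type in the members' ratios was not tested. With 2 replicates each probe has 1 residual degree of freedom, and an exchange of the RNAs before labelling, which no targeted gene checks here, would reverse every direction.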

How the data were processed

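The authors read the arrays with Feature Extraction 10.5.1.1, with annotation on build mm7, per the file headers. The mean spot intensity and median local background intensity were deposited without normalization. The scanner's log10 ratio of Cy5 over Cy3, background-subtracted and dye-normalized per the file headers, was deposited too, and the deposited series table holds the same values turned to ADM over cell. Spot flags were used as deposited.

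Background was corrected here with normexp (offset 50) and ratios normalized by loess within each array in limma 3.58.1 (R 4.3.3), and array 2 was turned to ADM over cell. Spots whose own outlier flag or local background flag was set were left out; background flags covered 2303 spots on array 1 and 1710 on array 2, and 3198 probes lacked a value on 1 array or both. Probes well above background in the same RNA on both arrays were tested with lmFit and eBayes on all 18117 such probes at once (Benjamini-Hochberg, threshold 0.05; 2.91 prior degrees of freedom). The limma step alone was tested on simulated log2 ratios, which does not check the background correction or the loess. Neighbours were the 500 non-member probes nearest in signal. Array number limits the precision, and arrays give no counting depth.

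The members and lists were chosen with earlier results of these data known. Named probes were the 8 lowest and the 8 highest tested with 1 sign on both arrays, all genes with several probes, 15 genes named for their roles, and from each other list the 3 lowest and the 3 highest called. Of the members, 44 RefSeq accessions matched RefSeq's GRCm38.p6 table, in which 2 Rps3a probes are now Rps3a1. A few genes are counted in the totals and not reported one by one here.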

Additional observations from a re-analysis of the deposited data

How the results depend on the processing

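The direction of the members rests on the centring. Of their 37 tested probes 27 were lower and 0 higher. With plain background subtraction 1 of 36 was lower (8.53% of all probes), with the scanner's processed signals or the deposited table it was 10 of 37 (14.2% of all) and 1 higher (32% of all), with median centring 0 (33 higher) and with outlying local backgrounds kept 0 of 51 by limma (15 at an unadjusted p under 0.05), but 41 of 51 with only backgrounds above 100 units left out, which was chosen after seeing the data. Trended eBayes called 31 of 37 lower and 2 higher, beside 3222 lower and 4532 higher of 18117 probes in all. With outlying backgrounds kept the median was -0.91, and Rps12 (-4.09), Rps2 (-4.30) and Rps18 (-3.83) each had a limma adjusted p of 0.74. The cause of each change was not tested. The median ratio (-1.33) was -0.80, -0.65 and 3.48 with plain subtraction, processed signals or deposited table, and median centring, and ran from -1.74 to -1.02 with 1 array left out, where no test and so no count is possible. Against neighbours (-0.72) it was -0.92 by ADM signal and -0.27 by cell signal, and -0.86 to -0.65 with 1 array left out. With 100 neighbours it was -0.64, and -0.76 without large subunit probes among them.

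Over all probes (1969 lower, 1000 higher) the lower calls were 3059 with an offset of 10, 265 with median centring, 0 with outlying backgrounds kept and 3222 with trended eBayes. The higher calls were 1864, 10778, 0 and 4532 in the same order, 474 with plain subtraction, 5798 with processed signals or the deposited table, 1783 with scaling between arrays and 648 with the median probe of each gene. With outlying backgrounds kept, 158 probes of 19807 had an unadjusted p under 0.05. Under median centring and trended eBayes the prior degrees of freedom were infinite, so their calls are not on a par with the others.

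Median centring turned 15 named probes above 0: Rps12 2.85, Rps2 3.04 and 3.30, Rps18 3.39, Fau 3.46, Rps27a 3.14, Rps29 3.30, Rps24 3.20, Rps6 3.80, Rps27l 4.24, the third Rps21 probe 3.48, Rps19 3.28 and 4.16, Rpsa 3.42 and Rps25 3.85. Keeping outlying backgrounds turned the third Rps21 probe (0.024), the second Rps19 probe (0.16) and the third Rps24 probe (-0.0013), and the median of a gene's probes, which takes in dim ones, turned Rps24 (0.021). No separate paired analysis was run because each array's ratio already sets the ADM RNA against the cell RNA of the same replicate. The test of the mean ratio against 0 is thus itself paired by replicate.

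Limits: 2 arrays of 1 cell line, 1 residual degree of freedom per probe, cross-binding to pseudogene transcripts not tested, and cell-labelled signals on array 1 down to 127 units in the bright class.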
